A study of Homo sapiens with 6 samples.

Results

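TXNIP, its relatives ARRDC1, ARRDC2, ARRDC3 and ARRDC4, and the transcription factors MLXIP and MLXIPL were followed in U251 cells, an established human glioma cell line. These 7 genes were taken by symbol from the 61496 features of the sequencing tables, and 6 of them had enough counts to be tested. The groups were 3 libraries of untreated U251 cells and 3 libraries of U251 cells exposed to sevoflurane (Sev), a volatile anesthetic, as a gas for 2 h. Both groups were grown in DMEM with serum, and no other treatment, transfection or genetic change was named for either. The concentration was 5.1% by the legend of the sequencing comparison, while the protocol of the libraries lists 1.7%, 3.4% and 5.1% without assigning them.

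Alpha-arrestins are adaptor proteins with an arrestin fold that bring NEDD4-type ubiquitin ligases to membrane proteins, which are then internalized and sorted. TXNIP, the best known of them, binds thioredoxin and lowers glucose uptake by promoting the removal of glucose transporters from the cell surface, and ARRDC4 also limits glucose uptake. MLXIP (MondoA) and MLXIPL (ChREBP) pair with MLX, are activated by phosphorylated glucose, and bind carbohydrate response elements, of which those of TXNIP and ARRDC4 are the standard examples.

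The carbohydrate response element is built from E-box-like elements. The stretches just upstream of TXNIP and ARRDC4 are shown because the levels of both genes varied widely among the control libraries, as given further on. Whether these sequences bear on that spread was not tested. Both sequences are from RefSeq on GRCh38.p14, in the 5′ to 3′ direction of the gene, from base −220 to base −1 before the transcription start. Capitals mark CCAAT boxes (CCAAT, or ATTGG where the box lies on the other strand) and, in TXNIP, a pair of CACGNG elements separated by any 5 bases, with the bases between them also in capitals, or, in ARRDC4, the E-box CACGTG.
TXNIP, minus strand, chr1:145996580-145996799: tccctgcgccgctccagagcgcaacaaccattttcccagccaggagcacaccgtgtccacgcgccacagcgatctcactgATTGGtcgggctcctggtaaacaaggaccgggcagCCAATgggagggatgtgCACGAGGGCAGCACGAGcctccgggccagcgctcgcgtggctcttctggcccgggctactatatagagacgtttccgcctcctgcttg
ARRDC4, plus strand, chr15:97960483-97960702: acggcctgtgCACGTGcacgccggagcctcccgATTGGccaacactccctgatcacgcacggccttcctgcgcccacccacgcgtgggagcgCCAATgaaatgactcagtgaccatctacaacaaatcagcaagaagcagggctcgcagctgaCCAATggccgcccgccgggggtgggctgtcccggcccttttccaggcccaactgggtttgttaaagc
The motif letters were chosen with the TXNIP promoter known, and both strands were searched. The windows searched ran from 250 bases before to 50 after each start, and all 7 members had at least 1. Paired elements of this spacing were present in 20 of 35116 windows (0.057%), and among the members in TXNIP alone, at −88 to −72. The E-box CACGTG was present in 7.26% of windows and, among the members, in ARRDC4 alone, at −210 to −205. The window of ARRDC4 held no paired match, and whether its E-box is part of a response element was not tested. CCAAT was present in 34.6% of windows, and among the members in windows of every gene except MLXIPL, with 2 copies in TXNIP and 3 in ARRDC4. These matches describe letters in a reference sequence, and no binding was measured.

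The libraries held 38624292 to 46318311 counts, and the first principal component, with 69.0% of the variance, separated the groups. Glial and glioma markers VIM, NES and GFAP were abundant, with mean CPM (counts scaled to library size, TMM-normalized) of 5485, 1465 and 269.9 in control cells, while PTPRC, EPCAM, CDH1 and MOG, which mark immune, epithelial and myelinating cells, had too few counts to be tested. Other markers of non-glioma types did pass the expression filter. They were MBP (myelinating cells), PECAM1 and CDH5 (endothelial), and RBFOX3 and SYP (neuronal). Of the 17 cell type markers examined, 13 were tested, with CD44, EGFR, PECAM1 and MBP called higher and SOX2 and S100B lower in Sev (log2 fold changes −1.10 to 1.01), and their part in the results was not tested. The call of EGFR was kept in 5 of 15 alternative settings. Of 27514 features tested with edgeR's quasi-likelihood test, 22.1% were called higher and 21.5% lower in Sev at a Benjamini-Hochberg adjusted p under 0.05. This balance depended on the scaling, with 6094 features higher and 5920 lower after TMM against 4665 and 7502 with library size only. The stricter rule of the study's methods, an absolute log2 fold change above 1 at an unadjusted p under 0.05, was passed by 11.4% of features upward and 12.0% downward. Against this background, 1 of the 6 tested members was called higher (ARRDC3), 1 lower (ARRDC2), 4 were not called, and 0 passed the stricter rule. CPM of the groups did not overlap in 56.5% of features and in 3 of the 6 tested members (ARRDC1, ARRDC2 and ARRDC3). The median log2 fold change (Sev over control) of the 6 was −0.25, beside −0.0056 over all features tested.

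TXNIP was the most abundant member on the length-corrected FPKM scale and, of the 6 tested members, had the widest spread among control libraries. Its level was 686, 237 and 386 CPM in control replicates 1, 2 and 3, and 240.4, 216 and 300.1 CPM in Sev replicates 1, 2 and 3. Control replicate 1 stood above all others, control replicate 2 lay inside the Sev range, and the groups overlapped. The means were 436 ± 229 CPM in control and 252 ± 43.1 CPM in Sev (SD, n = 3 each). The log2 fold change was −0.79 (SE 0.34, 95% interval −1.57 to −0.0070), with an adjusted p of 0.0937 in edgeR's test, so TXNIP was not called. The outcome rested on single control libraries. Without control replicate 1 the log2 fold change was −0.31 (adjusted p = 0.316), and without control replicate 2 it was −1.09 (adjusted p = 0.0153), the only 1 of 15 alternative settings in which TXNIP was called.

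ARRDC4, the closest partner of TXNIP in glucose response, was expressed at a lower level and was not called. It had 30.8, 14.4 and 20.4 CPM in control replicates 1, 2 and 3, and 17.8, 17.5 and 21.9 CPM in Sev replicates 1, 2 and 3. Control replicates 1 and 2 were the highest and the lowest of all 6 libraries, and the Sev values lay between them. The log2 fold change was −0.20 (SE 0.25, 95% interval −0.79 to 0.39, adjusted p = 0.559). Its sign depended on control replicate 1, without which it was 0.12 (adjusted p = 0.652).

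TXNIP and ARRDC4 ranked the libraries identically within each group, with control replicate 1 first and 2 last, and Sev replicate 3 first and 2 last, and so did ARRDC2, while ARRDC1 shared only the control order. Over the 6 libraries their log2 CPM had a Pearson r of 0.91, given as a description because the libraries of a group share a condition. By this measure ARRDC4 was number 96 of the 16061 features compared with TXNIP, and TXNIP number 29 of those compared with ARRDC4. The spread among control libraries set both genes apart from most. The SD of log2 CPM over the 3 control libraries was 0.77 for TXNIP and 0.55 for ARRDC4, beside a median of 0.11 over the 10855 features with a mean of at least 10 CPM. Only 1.37% of those features varied as much as TXNIP or more in control, and 2.87% as much as ARRDC4. In the Sev libraries the SDs were 0.24 and 0.18, which 20.3% and 31.7% of features reached. The highest control library exceeded the lowest 2.90-fold for TXNIP and 2.14-fold for ARRDC4, and the highest Sev library exceeded the lowest 1.39-fold and 1.25-fold. With 3 libraries a group, the difference in spread was not tested.

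**Figure D1:**
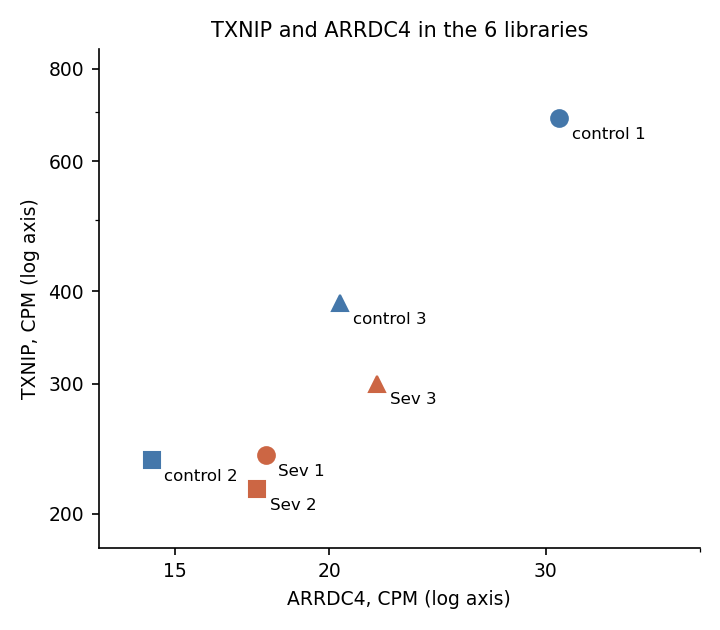
TXNIP (y axis) against ARRDC4 (x axis) in CPM on log axes, 1 point for each of the 6 libraries. Control replicate 1 lies at the upper right with 686 CPM of TXNIP and 30.8 CPM of ARRDC4, control replicate 2 at the lower left with 237 and 14.4 CPM, and the Sev libraries lie between 216 and 300.1 CPM of TXNIP.

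The FPKM ratio of TXNIP to ARRDC4, chosen after the values were seen, separated the groups although neither gene did. It was 25.2, 18.6 and 21.4 in control replicates 1, 2 and 3, and 15.3, 14.0 and 15.5 in Sev replicates 1, 2 and 3. All 3 Sev ratios lay below all 3 control ratios (21.7 ± 3.28 against 14.9 ± 0.825, SD, n = 3 each). The two-sided exact permutation test gave 0.1, the smallest p that 3 against 3 libraries allow, over a family of ratios and shares in which no p was lower.

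ARRDC3 rose in Sev. This alpha-arrestin is known to bring cell surface proteins to ubiquitin ligases. It had 120.5, 142 and 129.7 CPM in control replicates 1, 2 and 3, and 178, 202 and 172 CPM in Sev replicates 1, 2 and 3. Every Sev library was above every control library, with means of 131 ± 11.0 and 184 ± 15.5 CPM (SD, n = 3 each). The rise was 1.41-fold, or 0.49 on the log2 scale (SE 0.096, 95% interval 0.27 to 0.71, edgeR adjusted p = 0.0050). The call was made in 15 of 15 alternative settings, with log2 fold changes of 0.34 to 0.55. The antisense gene ARRDC3-AS1 overlaps it on the opposite strand and held 209 to 465 counts a library, against 5096 to 7573 for ARRDC3, with a log2 fold change of 0.15 (adjusted p = 0.713).

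ARRDC2, a less studied relative that also binds NEDD4-type ligases, fell by a small margin. Its level was 16.2, 13.8 and 16.1 CPM in control replicates 1, 2 and 3, and 11.9, 11.9 and 12.4 CPM in Sev replicates 1, 2 and 3. The Sev libraries lay close together and under every control library. The log2 fold change was −0.35 (SE 0.12, 95% interval −0.62 to −0.085, adjusted p = 0.0399), a level 1.28-fold lower. The call was kept in 8 of 15 alternative settings. It was lost, among others, without an expression filter (adjusted p = 0.0542), and without control replicate 1 or 3 (adjusted p = 0.0958 and 0.122) or Sev replicate 1, 2 or 3 (adjusted p = 0.107, 0.0770 and 0.0644).

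ARRDC1, which is known to recruit ESCRT proteins and to drive budding of vesicles at the plasma membrane, did not pass the test. It had 25.9, 22.3 and 23.2 CPM in control replicates 1, 2 and 3, and 18.5, 21.7 and 17.6 CPM in Sev replicates 1, 2 and 3. The groups did not overlap, but Sev replicate 2 came close to control replicate 2. The log2 fold change was −0.30 (SE 0.12, 95% interval −0.58 to −0.027, adjusted p = 0.0724), and 5 of 15 alternative settings called it lower. The antisense gene ARRDC1-AS1 lies over it on the opposite strand and was called lower, with 614, 491 and 695 counts in control, 299, 352 and 293 in Sev, and a log2 fold change of −0.74 (adjusted p = 0.0044). Whether the counting used strand is not stated, so reads of the antisense partners and of ARRDC1 and ARRDC3 cannot be told apart with certainty. The related ARRDC5 had 7 counts in 1 control library, 9 in 1 Sev library and 0 in the others, too few to test.

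Of the Mondo factors, MLXIP was expressed well above MLXIPL, and MLXIP was not called. MLXIP had 103.9, 96.4 and 107 CPM in control replicates 1, 2 and 3, and 113, 128 and 100.3 CPM in Sev replicates 1, 2 and 3. The ranges overlapped, and the log2 fold change was 0.15 (SE 0.10, 95% interval −0.089 to 0.39, adjusted p = 0.271). MLXIPL, a factor best known in liver and fat, held 7, 6 and 11 counts in control replicates 1, 2 and 3, and 4, 12 and 19 in Sev replicates 1, 2 and 3. These counts did not pass the expression filter, so MLXIPL was not tested. The library order of MLXIP, control replicate 3 first and Sev replicate 2 first, was not that of TXNIP, and their log2 CPM had a Pearson r of −0.33 over the 6 libraries.

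**Figure D2:**
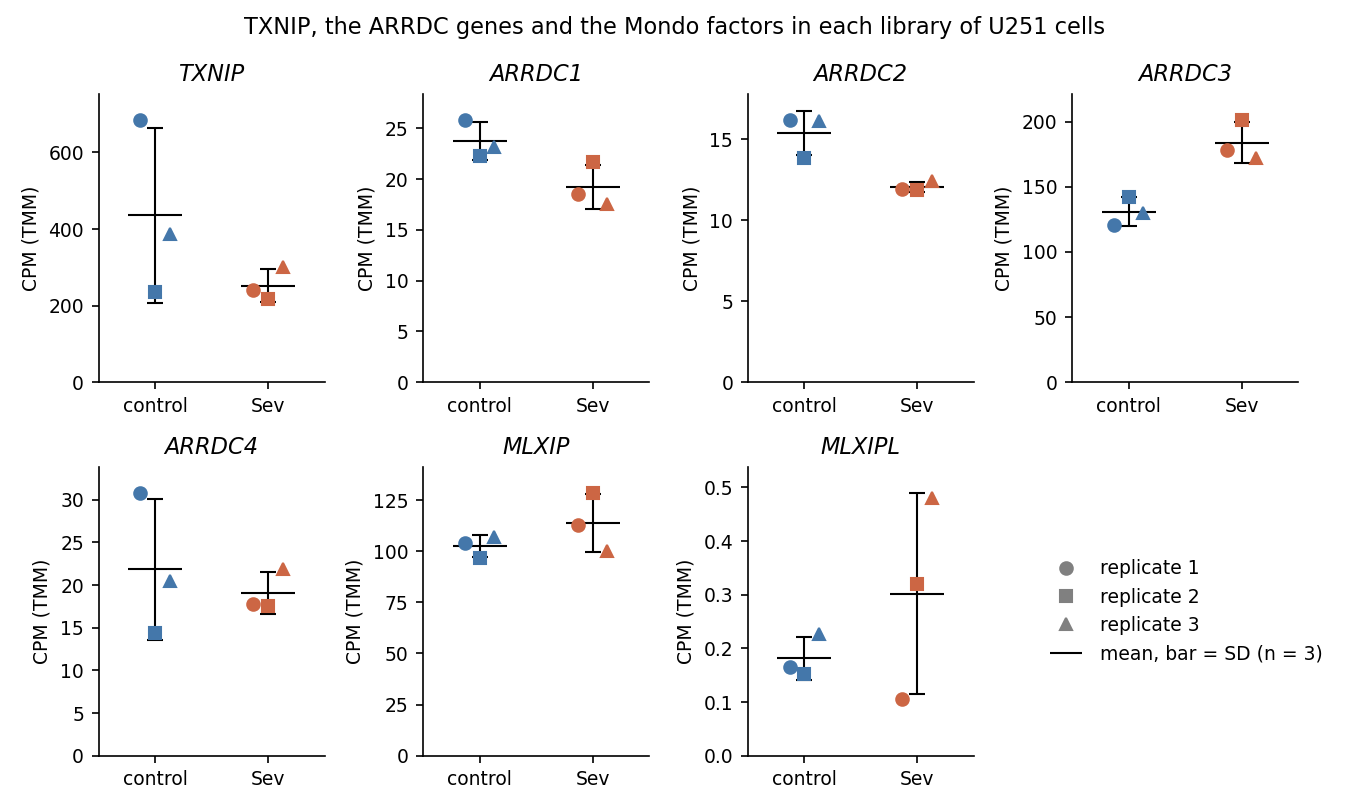
CPM (TMM-normalized) of the 7 genes in each library, 1 panel per gene with its own axis from 0; marker shape gives the replicate number, the line the mean and the bar the SD (n = 3). ARRDC3 lies higher in every Sev library, from 172 to 202 against 120.5 to 142 CPM, while control replicates of TXNIP run from 237 to 686 CPM.

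**Figure D3:**
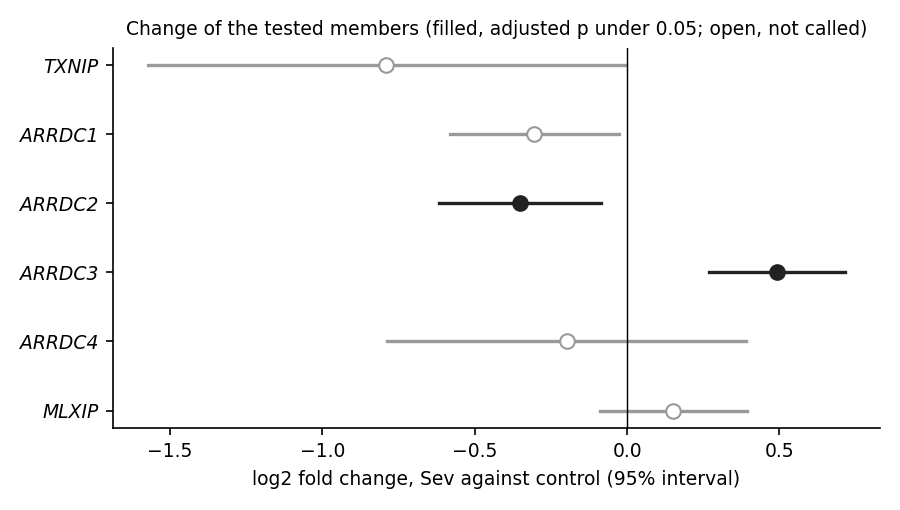
Log2 fold change (Sev over control) of the 6 tested genes with its 95% interval from edgeR; filled points were called at an adjusted p under 0.05. ARRDC3 (0.49) and ARRDC2 (−0.35) were called, and the interval of TXNIP, −1.57 to −0.0070, is the widest.

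On the FPKM scale, which corrects for gene length, the order of levels was the same in both groups. TXNIP led with 166, 54.9 and 90.9 FPKM in control replicates 1, 2 and 3, and 51.5, 44.7 and 66.3 FPKM in Sev replicates 1, 2 and 3. ARRDC3 followed with 21.0 to 23.9 FPKM in control and 27.5 to 30.1 in Sev, then MLXIP with 5.80 to 6.54 and 5.75 to 6.88. The lower places went to ARRDC1, ARRDC4 and ARRDC2, and MLXIPL was under 0.1 FPKM in every library. In control the neighbours MLXIP and ARRDC1, ARRDC1 and ARRDC4, and ARRDC4 and ARRDC2 overlapped over the libraries, whereas in Sev only ARRDC1 and ARRDC4 did.

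On the length-corrected FPKM scale, TXNIP made up most of the alpha-arrestin message in both groups, whereas on the CPM scale, which is not corrected for length, it held 46.1% in Sev replicate 2. Its share of the summed FPKM of TXNIP and ARRDC1 to ARRDC5 was 81.9%, 61.6% and 72.5% in control replicates 1, 2 and 3, and 58.4%, 53.1% and 63.9% in Sev replicates 1, 2 and 3. The ranges overlapped, with means of 72.0% ± 10.1 and 58.4% ± 5.39 (SD, n = 3 each), a difference of −13.6 percentage points (two-sided exact permutation p = 0.2), or −8.65 without control replicate 1. The share of ARRDC3 was 10.4%, 26.8% and 17.6% in control and 31.3%, 35.7% and 26.5% in Sev (exact permutation p = 0.2). The sum itself was 202, 89.1 and 125 FPKM in control and 88.1, 84.2 and 104 FPKM in Sev (exact permutation p = 0.2). Without TXNIP the sum was 36.6, 34.2 and 34.4 FPKM in control and 36.7, 39.5 and 37.5 FPKM in Sev, without overlap (exact permutation p = 0.1, the smallest possible).

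**Figure D4:**
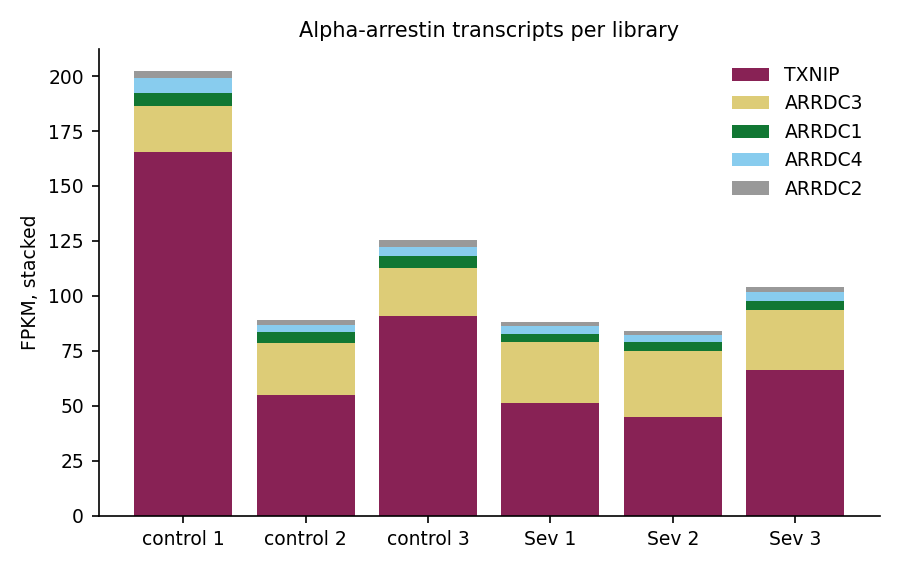
FPKM of TXNIP and ARRDC1 to ARRDC4 stacked for each of the 6 libraries, with ARRDC5 left out because it is close to 0. TXNIP takes the largest share everywhere, from 53.1% of the alpha-arrestin sum in Sev replicate 2 to 81.9% in control replicate 1.

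The features most like each member over the 6 libraries, by Pearson r of log2 CPM, are given as a description. Those for TXNIP were ADPRM (r = 0.994), SLC27A5 (0.989) and P2RX4 (0.987), none of them called between the groups. For ARRDC4 they were PIGZ (0.978), METTL15P1 (0.972) and NPIPB11 (0.968), also not called. ARRDC3 was closest to PPA1, CD55 and LNX1 (r = 0.998 for LNX1, the lowest), which were called higher. ARRDC2 was close to C6orf141 and APBB3, and ARRDC1 closest to TMTC2, DYNC2I1 and HEPH, all called lower. MLXIP was closest to BCR, DAAM2 and MYO1E, of which MYO1E had the lowest r (0.992). Between members, r was −0.96 for ARRDC2 and ARRDC3, −0.80 for TXNIP and ARRDC3, and 0.82 for TXNIP and ARRDC2.

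Around the members, 109 genes of 9 lists of general knowledge were examined, 101 of them testable, of which 31 were called higher and 19 lower, with a median log2 fold change of 0.077, beside 22.1% and 21.5% of all features called higher and lower. With library size only, the balance turned to 25 higher and 28 lower. Of the partners of the Mondo factors and their MAX network, 0 of 6 were called higher and 3 lower (beside 22.1% and 21.5% of all features), with a median of −0.34. MLX, the obligate partner, was not called, with 39.9, 60.3 and 38.3 CPM in control replicates 1, 2 and 3 and 38.2, 40.6 and 46.1 CPM in Sev replicates 1, 2 and 3 (log2 fold change −0.15, adjusted p = 0.530). The 3 that fell were MXI1 and MXD1, repressors that pair with MAX, with log2 fold changes of −1.08 and −0.53, and MAX itself with −0.65 (adjusted p = 0.0229, 0.0163 and 0.0040). MXI1 varied, with 19.1, 25.4 and 13.2 CPM in control and 12.9, 7.74 and 6.59 CPM in Sev, and its groups were barely apart. Its call was lost without control replicate 1 or 2 or Sev replicate 2 or 3 (adjusted p = 0.0587, 0.0737, 0.0690 and 0.0680), and that of MXD1 without control replicate 3 or Sev replicate 1 (adjusted p = 0.0657 and 0.0636).

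In the thioredoxin list, 3 of 9 genes were higher and 0 lower (median 0.077), beside 22.1% and 21.5% of all features. The lower count was 2 with library size only and with limma on filtered FPKM, and 1 without Sev replicate 3. The higher count was 2 in the 3 limma fits on FPKM and without control replicate 3 or Sev replicate 1. TXN, the thioredoxin that TXNIP binds, rose from 59.5, 85.6 and 70.1 CPM in control to 109, 100.3 and 101.3 CPM in Sev (log2 fold change 0.53, SE 0.13, adjusted p = 0.0133). TXNRD1, the reductase that recharges it, rose from 157, 264 and 187 CPM to 368, 487 and 521 CPM (1.18, SE 0.21, adjusted p = 0.0031). The call of TXN was lost without control replicate 3 or Sev replicate 1 (adjusted p = 0.0508 and 0.0526). NLRP3, an inflammasome sensor that TXNIP is reported to bind, rose by 2.56 on the log2 scale from a low level of 11 to 31 counts a library to 108 to 124 counts (adjusted p = 0.00076).

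Of the beta-arrestins and visual arrestins with ARRDC5, 4 of 5 were testable, 2 higher and 1 lower (median 0.47), beside 22.1% and 21.5% of all features. ARRB1, the beta-arrestin that desensitizes G protein-coupled receptors, rose from 5.95 to 6.67 CPM in control to 10.2 to 13.1 CPM in Sev (log2 fold change 0.85, adjusted p = 0.0026), while ARRB2, the more abundant, had 0.085 (adjusted p = 0.574). ARR3 fell by 0.98 (adjusted p = 0.0108) and SAG, the rod arrestin, was called higher (2.37, adjusted p = 0.0302) from 0 to 9 counts in control and 14 to 36 in Sev. The call of SAG was lost without control replicate 1 or 3 or Sev replicate 1 or 3 (adjusted p = 0.0616, 0.0604, 0.0824 and 0.0894).

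Among the ubiquitin ligases that alpha-arrestins recruit, calls went in 1 direction. Of 13 NEDD4-type ligases and ESCRT genes, 7 were higher and 0 lower (beside 22.1% and 21.5% of all features), with a median of 0.26. SMURF1 rose from 99.9, 100.2 and 101.6 CPM in control to 217, 236 and 204 CPM in Sev (log2 fold change 1.12, SE 0.080, adjusted p = 0.00011). SMURF2, NEDD4L and NEDD4 rose by 0.85, 0.83 and 0.81 (adjusted p = 0.0025, 0.0012 and 0.0011). VPS4A, the most abundant and an ESCRT ATPase, was not called (0.16, adjusted p = 0.146). With scaling by library size alone, with the 3 limma fits on FPKM, and on leaving out either control 1, control 3 or Sev 1, the count was 4, and ITCH, WWP1 and WWP2 lost their calls with that scaling. Of 8 genes of known alpha-arrestin cargo, 4 were higher and 2 lower (beside 22.1% and 21.5% of all features), with a median of 0.31. The higher count was 2 without control replicate 1 or 3 and in the 3 limma fits on FPKM. It was 3 with library size only, without an expression filter and with a block for replicate number, among others. The lower count was 1 without control replicate 3, Sev replicate 1 or Sev replicate 3. AVPR2, a vasopressin receptor, rose from 5 to 13 counts to 75 to 93 counts (log2 fold change 3.66, adjusted p = 0.00041), and SLC11A2, an iron transporter, fell by 0.45 (adjusted p = 0.0039).

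Of 17 tested genes for glucose uptake, phosphorylation and the phosphofructokinase step, 2 were higher and 6 lower (median −0.23), beside 22.1% and 21.5% of all features, with library size only 1 was higher and 9 lower, and with limma on FPKM 0 were higher and 8 or 9 lower. Leaving out control replicate 1 or 3 left 1 higher. SLC2A1 (GLUT1), the main glucose transporter and a TXNIP cargo, rose from 549, 661 and 604 CPM in control to 774, 981 and 737 CPM in Sev (log2 fold change 0.46, SE 0.13, adjusted p = 0.0221), a call lost without control replicate 1 or 3 (adjusted p = 0.0745 and 0.0679) and in the 3 limma fits on FPKM. SLC2A3 (GLUT3) fell from 73.6, 62.5 and 65.1 CPM to 24.5, 27.5 and 23.5 CPM (−1.41, SE 0.10, adjusted p = 0.00011). HK2, which phosphorylates glucose, fell from 77.8, 111.6 and 89.4 CPM to 48.2, 49.0 and 45.8 CPM (−0.96, adjusted p = 0.0011). HK1, a more abundant hexokinase, was not called (log2 fold change −0.058). It had 405, 524 and 504 CPM in control and 443, 530 and 403 CPM in Sev. Whether the supply of phosphorylated glucose changed was not tested. PFKFB4 and SLC2A10 fell by 1.37 and 0.83 (adjusted p = 0.00037 and 0.0108).

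Targets of carbohydrate-response factors other than the arrestins gave 7 of 22 tested genes higher and 3 lower, with a median of 0.14, against the 22.1% and 21.5% of all features. The counts were 6 and 5 with library size only, 5 and 5 with limma on filtered FPKM, and 4 and 5 unfiltered. Without control replicate 1 or 3 or Sev replicate 1 they were 6 and 2. KLF10 and KLF11, transcription factors of the SP/KLF family, rose by 1.54 and 1.29 (adjusted p = 0.0011 and 0.00041), and PKLR, a pyruvate kinase of liver, rose by 1.72 from 22 to 39 counts to 44 to 129 counts (adjusted p = 0.0129). PPP1R3C, which directs glycogen synthesis, fell by 1.07 (adjusted p = 0.0021). SCD, the most abundant, was not called (0.18, adjusted p = 0.195).

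AMP-activated kinase, which phosphorylates TXNIP and so promotes its degradation, had 4 of 13 subunit and activator genes higher and 4 lower (median 0.049), beside 22.1% and 21.5% of all features. The lower count was 1 without Sev replicate 1 and 2 without control replicate 3 or Sev replicate 3. PRKAG2, CAMKK1 and PRKAB2 rose by 0.94, 0.72 and 0.49 (adjusted p = 0.0022, 0.0159 and 0.0013), and PRKAA2 and PRKAG1 fell by 0.68 and 0.65 (adjusted p = 0.00097 and 0.0224). The call of PRKAG1 was lost without control replicate 2 or 3 or Sev replicate 1 or 3 (adjusted p = 0.0600 to 0.0694), and that of CAMKK1 without Sev replicate 1 (adjusted p = 0.0510) and in the 3 limma fits on FPKM. Of other known regulators of TXNIP transcription, 3 of 10 were higher and 0 lower (median −0.036), beside 22.1% and 21.5% of all features. In 9 of 15 alternative settings 1 or 2 were lower, among them 2 with library size only and 2 without Sev replicate 2, and 1 without control replicate 1 or Sev replicate 3. The 3 were EP300 (0.61), HSF1 (0.56) and FOXO3 (0.46), with adjusted p of 0.00077, 0.0017 and 0.0102.

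**Figure D5:**
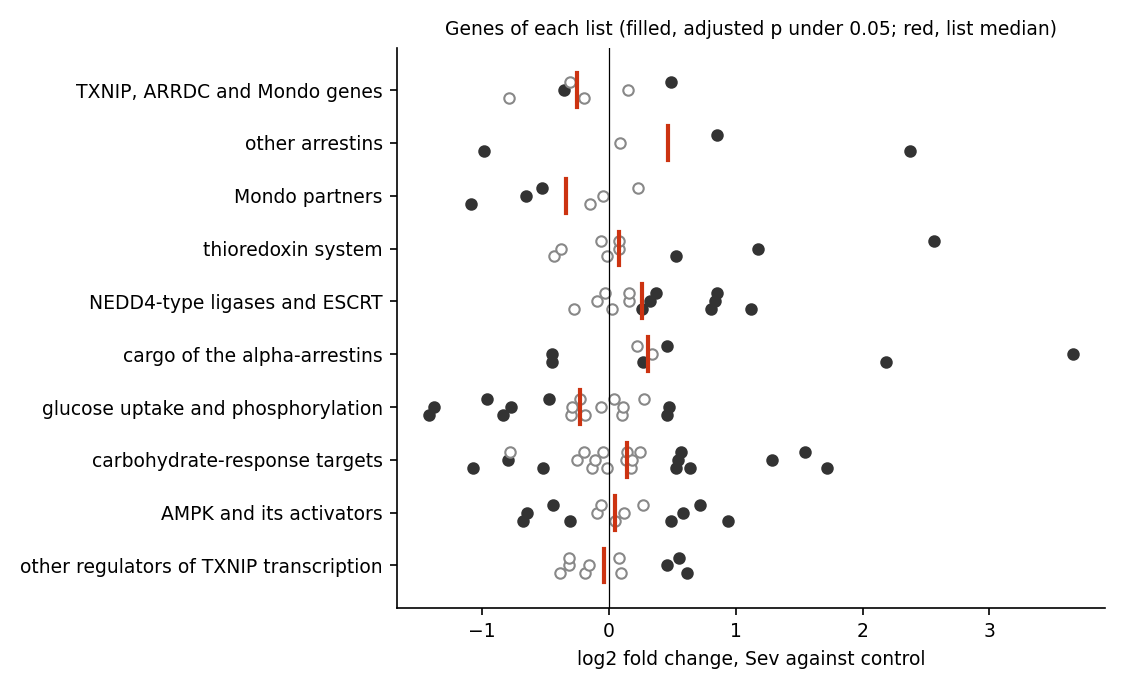
Log2 fold change (Sev over control) of the tested genes of each list, 1 point per gene, with the median as a bar; filled points were called at an adjusted p under 0.05. The ligase list holds 7 called genes, all above 0, while the median of the TXNIP, ARRDC and Mondo genes is −0.25.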

How the data were processed

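RNA of 3 control and 3 Sev-treated U251 libraries was depleted of ribosomal RNA and sequenced with strand-specific adapters. The authors deposited raw counts per gene and FPKM values of the same features. The submitters' processing notes name bcl2fastq 2.19, featureCounts and hg18; the aligner and the use of strand in counting are not given in the sources used here. The identifiers include some that are later than hg18, so no coordinates of the counted genes are printed. Symbols were joined to 60295 of 60564 Ensembl identifiers, and 932 assembled loci have none. Overlapping genes were read from GENCODE 29, promoters from RefSeq GRCh38.p14.

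Groups came from the labels, which do not say whether the libraries came from separate cultures, so p-values measure only the spread between these samples, which may be technical. Replicate pairs differed beyond sampling noise. Counts were filtered (filterByExpr), TMM-normalized and tested in R 4.3.3 with edgeR 4.0.16 (glmQLFit, glmQLFTest), without covariates. SE is the absolute log2 fold change over the square root of F. Shares and ratios were compared by exact permutation tests in scipy 1.17.1. Members and lists were chosen with earlier results of these data known. Named were all members and, per list, up to 4 called genes with the largest absolute log2 fold change plus the most abundant by FPKM. HK1 was named in addition, beside HK2. For likeness, 3 features per member with a mean CPM of at least 1 were named. Results for some of the genes this rule names are not reported here. FPKM is scaled by library total, not TMM. The scripts were tested on simulated data with 200 genes changed. These were far fewer than the features called here, so scaling under so broad a change was not checked. Alternatives were DESeq2's size factors or library size alone, DESeq2 1.42.0, no filter, at least 10 counts in every library, a replicate block, leaving out each library, and limma 3.58.1 on log2 FPKM with a pseudocount of 1 or 0.1 over features reaching 0.5 FPKM in 3 libraries, and, with a pseudocount of 1, over all features.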

Additional observations from a re-analysis of the deposited data

How the results depend on the processing

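Over 15 alternatives, ARRDC3 stayed called, MLXIP was never called, and neither changed sign. ARRDC1 was called lower without Sev replicate 2 (−0.39, adjusted p = 0.0319), by library size only (−0.45) and by limma on log2(FPKM + 1) (−0.37 with or without filter) or log2(FPKM + 0.1) (−0.44). Scaling by library size only shifted the median of all features by −0.14. ARRDC2 lost its call without an expression filter (−0.36) and with the replicate block (−0.35), where the adjusted p was 0.0846. Replicate numbers did not pair the libraries: deviations of same-numbered libraries correlated at −0.0072, 0.0035 and 0.027. The block lowered the calls to 5228 higher, and those of the NEDD4-type ligase list from 7 to 4. Leaving out 1 library at a time gave −1.09 to −0.31 for TXNIP, −0.39 to −0.24 for ARRDC1, −0.43 to −0.32 for ARRDC2, and −0.43 to 0.12 for ARRDC4, reversed to 0.12 without control replicate 1. It gave −18.8 to −8.65 percentage points for the TXNIP share, 12 to 22 lower calls over the 9 lists, and 23 to 30 higher ones. Features past the stricter rule numbered 1691 higher and 2148 lower with at least 10 counts in every library, 579 and 690 with log2(FPKM + 1), 579 and 691 unfiltered, and 1476 and 2973 with log2(FPKM + 0.1), beside 3147 and 3315. Features called higher and lower numbered 3676 and 6709 with limma on log2(FPKM + 1), 3623 and 6530 on log2(FPKM + 0.1), and 4665 and 7502 with library size only, against 6094 and 5920. Genes of the 9 lists called higher and lower numbered 20 and 28 in both filtered FPKM settings, 16 and 25 unfiltered, and 25 and 28 with library size only, against 31 and 19. Unfiltered limma on log2(FPKM + 1) also lost the calls of ARRB1, SAG, TXN, PKLR and FOXO3, and SAG lost its call without an expression filter. The cause of these changes was not tested. The 3 libraries per group and, for MLXIPL and ARRDC5, the low counts limit precision.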
